A study of Mus musculus with 24 samples.

Results

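Mouse 3134 cells that expressed the C1-C2 mutant of NIPBL were compared with 3134 cells that expressed wild-type NIPBL, across all genes and with treatment as a block. The libraries were chosen by their titles. They are 8 of the 24 libraries of the series: 2 of the C1-C2 mutant (C1C2 below) in ethanol, 2 of C1C2 in dexamethasone, 2 of wild type in ethanol and 2 of wild type in dexamethasone. Line 3134 is labelled as mammary adenocarcinoma cells. Every culture came from cells transduced with an IPTG-inducible hairpin that depletes NIPBL, into which a NIPBL construct was then brought by piggyBac integration. All 8 cultures had charcoal-stripped serum and 1 mM IPTG for 3 days, then ethanol or 100 nM dexamethasone, a synthetic glucocorticoid, for 2 h. The remaining 16 libraries are of C1, C2 or empty-vector cells with IPTG and of empty-vector cells without it, and entered the fit as separate groups. The labels name 1 line per construct and do not say whether a line is a clone or a pool, nor what C1 and C2 change, so the construct and the line that carries it cannot be told apart. The design text calls the replicates biological and says that they were sub-cultured, so p-values measure the spread between such cultures and not between independently made lines.

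NIPBL, together with its partner MAU2, helps the ring-shaped cohesin complex to bind DNA and is needed for cohesin to extrude loops. Loops bring enhancers and promoters of the same domain close to each other, and clustered protocadherin genes are the textbook case of promoter choice through cohesin and CTCF. A partial loss of NIPBL is known to change many genes by small amounts, as in Cornelia de Lange syndrome. The series title names a complex of transcription factors with NIPBL and MAU2 that places cohesin at enhancers, and the comparison asks which transcripts the mutant protein leaves at another level than wild-type NIPBL does in cells depleted of their own.

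The 8 libraries held 37604576 to 57690039 counts each. Replicates in wild-type cells with dexamethasone were the more spread: the SD of the log2 difference between replicates was 0.104 for C1C2 in dexamethasone and 0.151 for wild type in dexamethasone, which does not say which replicate is off. The SD of the log2 distance from the libraries of the other lines in the same treatment was 0.161 for wild-type dexamethasone replicate 1, the largest in the range of 0.0952 to 0.161 over the 20 libraries with IPTG, and this library is called doubted below. C1C2 replicate 2 in ethanol has a title that says ethanol and a treatment label that says dexamethasone. Its Per1 level of 24.4 CPM and Tsc22d3 level of 12.3 CPM lay with the ethanol libraries, against 278 to 287 CPM of Per1 and 161 to 217 CPM of Tsc22d3 in the C1C2 and wild-type dexamethasone libraries. CPM here is a count scaled to library size with TMM factors. Of the epithelial markers, Epcam was at 0 CPM, Cdh1 at 0.0734 CPM or less and Krt8 at 0.767 CPM or less, while Krt14, a basal keratin, stood at 16.5 to 19.3 CPM in C1C2 libraries and 19.6 to 21.8 CPM in wild-type libraries. Of 25 matrix and mesenchymal genes, Vim, an intermediate filament, stood at 3622 to 3894 CPM in C1C2 libraries and 3327 to 3607 CPM in wild-type libraries, Col1a1 at 0.633 to 1.79 CPM in all 8, and Postn, Tnc, Dcn and Lum at 0. Their summed level was 12240 to 13930 CPM in C1C2 libraries and 13110 to 14660 CPM in wild-type libraries. Of the 17 tested members, 12 had a negative pooled log2 difference and 5, Vim and Col1a1 among them, a positive one. The summed level of the 16 epithelial markers, most of it from Krt14, was 18.0 to 21.2 CPM in C1C2 libraries and 21.3 to 24.2 CPM in wild-type libraries. That of 14 immune markers was 11.7 to 13.2 CPM in C1C2 libraries and 10.8 to 12.6 CPM in wild-type libraries, with Cd3e, Cd8a, Adgre1 and Itgam at 0. That of 10 endothelial markers was 0.536 to 0.790 CPM in C1C2 libraries and 0.422 to 0.616 CPM in wild-type libraries, with Kdr, Emcn, Erg and Cldn5 at 0. In bulk RNA, fewer cells of a kind and less RNA per cell cannot be told apart.

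The targeted gene itself did not separate the lines. Nipbl (chromosome 15, 8290617 to 8444463, minus strand) had 65.7 and 61.6 CPM in C1C2 cells against 70.4 and 62.7 CPM in wild-type cells in ethanol. In dexamethasone it had 56.7 and 55.5 CPM in C1C2 cells against 66.2 and 55.1 CPM in wild-type cells. The groups overlapped in both treatments, and the pooled log2 difference was -0.09 (SE 0.07, adjusted p = 0.553, edgeR). Empty-vector cells with IPTG held 54.4 to 65.1 CPM and empty-vector cells without IPTG 151 to 186 CPM. The labels do not say whether transcripts of the constructs can be counted as mouse Nipbl, so these counts do not give the level of the introduced protein. Mau2, the partner of NIPBL in the loader, had 56.2 to 64.8 CPM in C1C2 cells and 59.9 to 71.8 CPM in wild-type cells (log2 difference -0.07, SE 0.04, adjusted p = 0.408).

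Pooled over both treatments, 823 of 16934 tested genes differed between C1C2 and wild-type cells at an adjusted p under 0.05, or 4.86% of them (edgeR quasi-likelihood test, Benjamini-Hochberg adjustment over all tested genes). Of these, 452 were higher in C1C2 cells (2.67%) and 371 were lower (2.19%). Most differences were small: the median size over the called genes was 0.25 on the log2 scale, and 41 genes were at least 2-fold higher (0.242%) and 40 at least 2-fold lower (0.236%). In 433 of the higher and 352 of the lower genes, both C1C2 libraries lay beyond both wild-type libraries in each treatment. Without regard to the test, such separation in both treatments occurred in 9.61% of tested genes with C1C2 higher and in 8.08% with C1C2 lower. Within ethanol alone 130 genes were called (0.768%), 67 higher (0.396%) and 63 lower (0.372%) in C1C2 cells. Within dexamethasone alone 238 were called (1.41%), 114 higher (0.673%) and 124 lower (0.732%). The ethanol count was 46 and 39 without C1C2 ethanol replicates 1 and 2, and 62 and 34 without wild-type ethanol replicates 1 and 2. The dexamethasone count was 43 and 45 without C1C2 dexamethasone replicates 1 and 2, and 120 and 149 without wild-type dexamethasone replicates 1 and 2. With the replicate number as a block the counts were 1332 pooled, 299 in ethanol and 550 in dexamethasone. The pooled count was 518 without C1C2 ethanol replicate 1, 422 without C1C2 ethanol replicate 2, 424 and 404 without C1C2 dexamethasone replicates 1 and 2, 529 and 407 without wild-type ethanol replicates 1 and 2, and 618 and 782 without wild-type dexamethasone replicates 1 and 2. It was 406 without both doubted libraries (wild-type dexamethasone replicate 1 and C1C2 ethanol replicate 2) and 171 with C1C2 ethanol replicate 2 moved to the dexamethasone group.

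**Figure D1:**
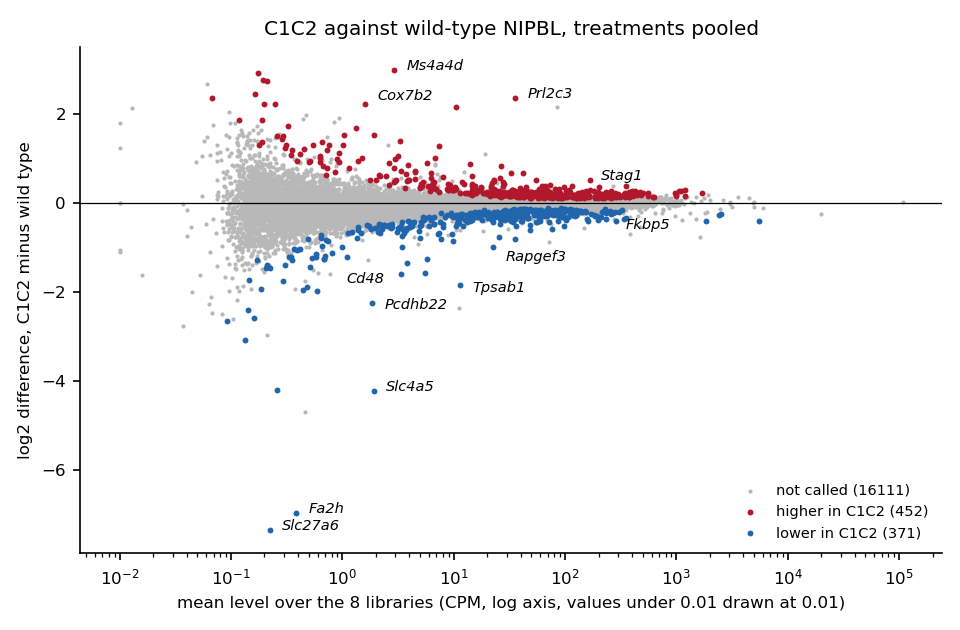
Log2 difference of C1C2 minus wild-type cells, treatments pooled (vertical axis), against the mean level over the 8 libraries in CPM (horizontal log axis), for 16934 genes. The 452 genes called higher (red) and 371 called lower (blue) lie mostly close to 0, with Ms4a4d at 2.99 and Slc4a5 at -4.22 among the exceptions.

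The gene with the largest rise among those with a mean of at least 1 CPM was Ms4a4d (chromosome 19, 11536801 to 11558467, plus strand), a member of the membrane-spanning MS4A family. It had 4.77 and 5.31 CPM in C1C2 cells against 0.471 and 0.565 CPM in wild-type cells in ethanol, and 5.53 and 5.06 CPM in C1C2 cells against 0.813 and 0.806 CPM in wild-type cells in dexamethasone. The groups were far apart in both treatments, with a log2 difference of 2.99 (SE 0.17, adjusted p = 4.14e-11). In the C1, C2 and empty-vector libraries, with or without IPTG, Ms4a4d stayed between 0.207 and 0.677 CPM, below every C1C2 library. Cox7b2, a testis-type isoform of a cytochrome c oxidase subunit, had 3.09, 3.26, 1.90 and 2.29 CPM in C1C2 cells (ethanol, then dexamethasone) against 0.496, 0.796, 0.398 and 0.537 CPM in wild-type cells. Its log2 difference was 2.23 (SE 0.20, adjusted p = 1.26e-07). C1 cells held 1.33 to 1.71 CPM of Cox7b2 and C2 cells 0.122 to 0.225 CPM, so the other lines lay on both sides of wild type. Among the 452 genes called higher, both C1C2 libraries lay above all 10 other libraries in each treatment for 10 genes. Over all 16934 tested genes C1C2 stood apart in this way, high or low, for 19 (0.112%). The 452 genes were chosen with C1C2 above wild type, which by itself raises their share.

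Slc4a5, Fa2h and Slc27a6 had large falls and, of the lines with IPTG, were high in wild type alone. Slc4a5 (chromosome 6, 83219828 to 83304945, plus strand) encodes an electrogenic sodium bicarbonate cotransporter. It had 0.102 and 0.184 CPM in C1C2 cells against 3.12 and 3.42 CPM in wild-type cells in ethanol, and 0.203 and 0.294 CPM in C1C2 cells against 3.62 and 4.32 CPM in wild-type cells in dexamethasone. The log2 difference was -4.22 (SE 0.24, adjusted p = 3.59e-11). The C1, C2 and empty-vector libraries, including those without IPTG, held 0.0158 to 0.311 CPM, close to C1C2 and far below wild type. Fa2h, which hydroxylates fatty acids for sphingolipids, had 1 count over the 4 C1C2 libraries and 152 counts over the 4 wild-type libraries, a 146-fold lower rate in C1C2 cells (95% exact binomial interval 25.8 to 5800, counting error only). Slc27a6, a fatty acid transport protein, had 0 counts in C1C2 cells and 82 counts in wild-type cells, at least 26.2-fold lower with C1C2 set to 3 counts over the group. Fa2h and Slc27a6 were chosen after their values were seen, since they have means under 1 CPM. Both were also at 0 in all C1, C2 and IPTG-treated empty-vector libraries. Of the lines with IPTG, only wild type therefore had enough counts to bring these genes past the filter for low counts. Slc4a5 likewise reached the mean of 1 CPM needed for naming only through its wild-type libraries. The large falls of Slc4a5, Fa2h and Slc27a6 are not separate support for a pattern of wild type alone.

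Other large falls differed in where the remaining lines stood. Dtna, which encodes the cytoskeletal protein dystrobrevin alpha, had 1.94 to 2.32 CPM in C1C2 cells and 5.12 to 5.93 CPM in wild-type cells (log2 difference -1.35, SE 0.12, adjusted p = 1.33e-07). It was at 0.870 to 2.72 CPM in every library of the other lines. Lncenc1, a long noncoding RNA, had 2.60 to 2.96 CPM in C1C2 cells and 7.29 to 9.11 CPM in wild-type cells (log2 difference -1.57, SE 0.11, adjusted p = 9.56e-10), with 6.18 to 7.16 CPM in C2 cells and 1.87 to 3.11 CPM in C1 cells. Cd48, a cell-surface ligand of the SLAM family, had 1.35 to 1.96 CPM in C1C2 cells and 4.34 to 5.75 CPM in wild-type cells (log2 difference -1.60, SE 0.13, adjusted p = 3.9e-08). Both single mutants held 3.69 to 4.56 CPM of Cd48, so C1C2 was the mutant line at the empty-vector level of 1.27 to 2.36 CPM. Tpsab1, a mast cell tryptase, had 3.70 to 6.70 CPM in C1C2 cells and 15.1 to 20.7 CPM in wild-type cells (log2 difference -1.85, SE 0.22, adjusted p = 0.000334), with 14.4 to 19.5 CPM in C1 cells, 6.90 to 10.8 CPM in C2 cells and 1.66 to 2.74 CPM in empty-vector cells with IPTG. Wild type was beyond all 10 other libraries in each treatment for 23 of the 371 lower genes (as the highest) and for 44 of the 452 higher genes (as the lowest). Over all tested genes it was so for 154 (0.909%). Called genes were chosen for a gap between wild type and C1C2 in these libraries, which by itself raises such counts. Of the 40 genes at least 2-fold lower in C1C2 cells, 12 were highest in the wild-type line. Whether such genes mark the construct or the history of the line was not tested.

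**Figure D2:**
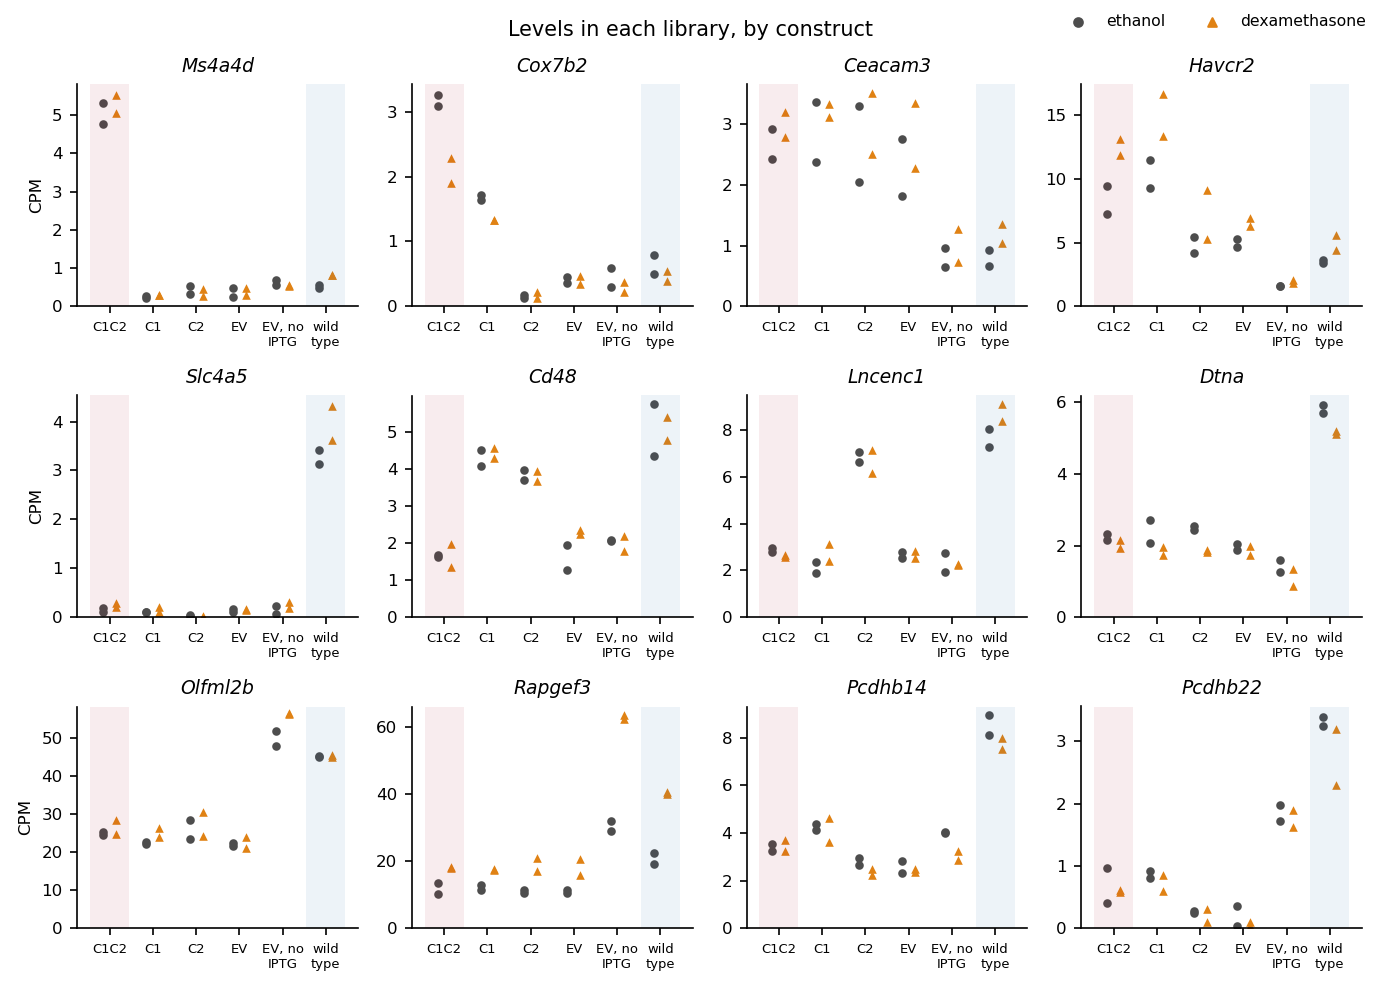
CPM of 12 genes in each of the 24 libraries, by construct, with C1C2 shaded red at the left and wild type shaded blue at the right (EV, empty vector; circles, ethanol; triangles, dexamethasone). Ms4a4d was high in the C1C2 line, Slc4a5 and Dtna in the wild-type line, and Olfml2b and Rapgef3 in the wild-type line and in empty-vector cells without IPTG.

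Genes that respond to IPTG, below called lowered or raised by the knockdown, can be chosen on the empty-vector libraries, without the C1C2 and wild-type libraries. Every culture carried the hairpin, so an effect of IPTG itself cannot be told apart from that of NIPBL depletion. In empty-vector cells, IPTG lowered 48 genes (0.283% of tested genes) and raised 91 (0.537%) at least 2-fold, at an adjusted p under 0.05 in both treatments. Of the 48 lowered genes, 22 were lower in C1C2 than in wild-type cells, 0 were higher and 26 did not pass, against 2.19% called lower among all tested genes. Their median log2 difference was -0.63, and 46 of 48 were negative, with Nipbl itself among the 48. The median over all tested genes was -0.0058. Of the 91 raised genes, 34 were higher in C1C2 cells, 0 were lower and 57 did not pass, against 2.67% called higher among all tested genes, with a median of 0.48. Over 35 lowered genes that are not clustered protocadherins, 15 were lower and the median was -0.57. The lowered count was 14 without C1C2 dexamethasone replicate 2. The raised count was 16 and 22 without wild-type ethanol replicates 1 and 2, 14 without C1C2 ethanol replicate 2, 21 without wild-type dexamethasone replicate 1 and 19 without C1C2 dexamethasone replicate 2. Without both doubted libraries the counts were 15 and 10.

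Set on a scale where empty-vector cells without IPTG are 0, the 48 lowered genes had a median log2 level of -1.13 and -1.11 in the C1C2 ethanol libraries, against -0.56 and -0.50 in the wild-type ethanol libraries. In dexamethasone the medians were -1.16 and -1.23 in C1C2 libraries and -0.48 and -0.67 in wild-type libraries. Empty-vector libraries with IPTG, which served to choose the genes, lay at -1.29 to -1.49. The C1C2 libraries were therefore closer to them than any wild-type library was. The 91 raised genes had medians of 1.42 and 1.56 in C1C2 libraries against 1.04 and 0.97 in wild-type libraries in ethanol. In dexamethasone they were 1.33 and 1.43 in C1C2 libraries against 0.87 and 1.00 in wild-type libraries. The C1C2 range for raised genes overlapped that of the empty-vector libraries with IPTG, 1.27 to 1.48, and wild type lay below both but far above 0.

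**Figure D3:**
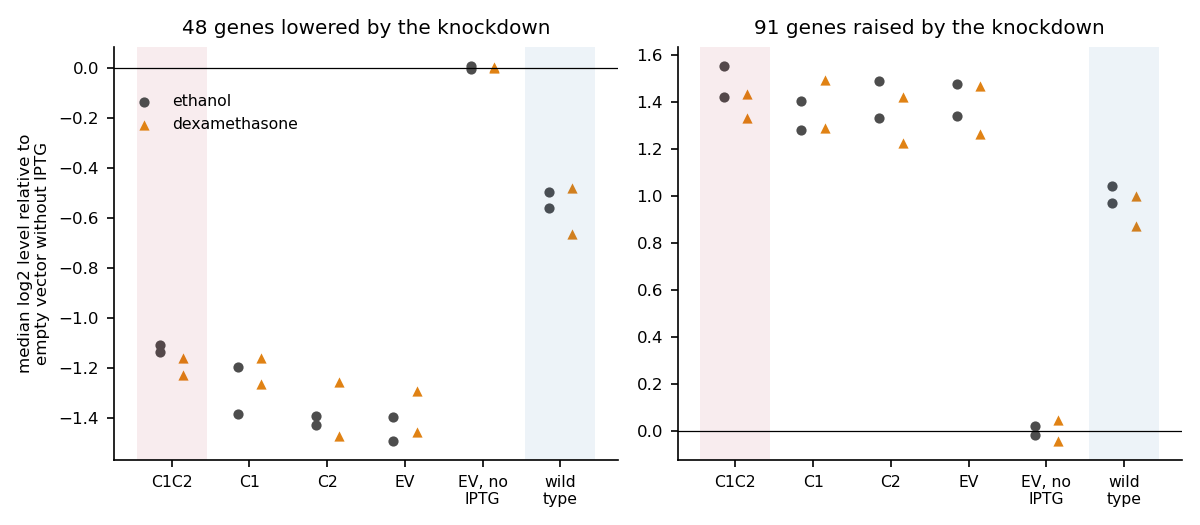
Median log2 level of the 48 genes lowered (left) and the 91 genes raised (right) by IPTG in empty-vector cells (EV), for each library relative to empty-vector cells without IPTG; circles are ethanol and triangles dexamethasone libraries. C1C2 libraries (-1.11 to -1.23 and 1.33 to 1.56) lay farther from 0 than wild-type libraries (-0.48 to -0.67 and 0.87 to 1.04).

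Several of the lowered genes kept their call with any 1 library left out. Olfml2b, a secreted olfactomedin-domain protein, had 24.4 to 28.5 CPM in C1C2 cells against 44.9 to 45.6 CPM in wild-type cells. The wild-type level was close to the 47.7 to 56.5 CPM of empty-vector cells without IPTG, and the C1C2 level to the 21.2 to 24 CPM of those with IPTG (log2 difference -0.81, SE 0.07, adjusted p = 1.26e-07). Rapgef3, which encodes the cAMP-activated exchange factor EPAC1, had 10.3 and 13.3 CPM in C1C2 cells against 19.2 and 22.4 CPM in wild-type cells in ethanol, and 18.0 and 18.1 CPM in C1C2 cells against 40.7 and 39.9 CPM in wild-type cells in dexamethasone. Its log2 difference was -0.98 (SE 0.09, adjusted p = 1.44e-06). Rapgef3os1 and Rapgef3os2 overlap its exons on the other strand, and the strand setting of the counts is not given. H2-T23, which encodes the nonclassical MHC class I molecule Qa-1, had 17.8 to 21.3 CPM in C1C2 cells and 30.4 to 34.7 CPM in wild-type cells (log2 difference -0.76, SE 0.07, adjusted p = 8.17e-07). Chst1, a carbohydrate sulfotransferase, had 67.4, 74.9, 51.2 and 50.3 CPM in C1C2 cells against 101, 123, 71.3 and 71.2 CPM in wild-type cells (log2 difference -0.57, SE 0.07, adjusted p = 5.33e-05). The matricellular genes Ccn4 and Ccn5 fell, with log2 differences of -0.33 and -0.71 (adjusted p = 0.000174 and 0.000725). H2-T23, Chst1, Ccn4 and Ccn5 were chosen after their values were seen.

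Among the raised genes, Havcr2, which encodes the immune checkpoint receptor TIM-3, had 7.27 and 9.40 CPM in C1C2 cells against 3.59 and 3.42 CPM in wild-type cells in ethanol, and 11.9 and 13.1 CPM in C1C2 cells against 5.62 and 4.43 CPM in wild-type cells in dexamethasone (log2 difference 1.28, SE 0.15, adjusted p = 6.35e-05). Empty-vector cells without IPTG held 1.56 to 2.05 CPM, so both lines were above them. Ceacam3, a carcinoembryonic antigen family member, had 2.42 to 3.21 CPM in C1C2 cells and 0.669 to 1.36 CPM in wild-type cells (log2 difference 1.54, SE 0.22, adjusted p = 0.000157). Akap6, a scaffold for protein kinase A that was chosen after its values were seen, had 6.34 to 8.83 CPM in C1C2 cells and 3.78 to 4.44 CPM in wild-type cells (log2 difference 0.89, SE 0.10, adjusted p = 3.85e-06). Inpp4b, a phosphoinositide phosphatase, rose by 1.07 (SE 0.19, adjusted p = 0.00145), and Tenm4, a teneurin, by 1.01 (SE 0.18, adjusted p = 0.000982). Cdh17, an intestinal cadherin, had 1.71 to 2.32 CPM in C1C2 cells and 0.499 to 0.769 CPM in wild-type cells (log2 difference 1.68, SE 0.30, adjusted p = 0.00238; adjusted p = 0.0548 without both doubted libraries). Outside the raised genes, Cpne7, a calcium-dependent copine, had 1.10, 1.40, 1.63 and 1.85 CPM in C1C2 cells against 0.273, 0.308, 0.951 and 0.825 CPM in wild-type cells (log2 difference 1.53, SE 0.18, adjusted p = 1.05e-05).

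The proliferins Prl2c3 and Prl2c2, secreted prolactin-family hormones, were the 2 tested members of their list of 5. Both were called higher, against 2.67% called higher among all tested genes. Prl2c3 had 42.4 and 97.1 CPM in C1C2 cells against 9.59 and 10.6 CPM in wild-type cells in ethanol, and 51.5 and 49.1 CPM in C1C2 cells against 14.7 and 11.7 CPM in wild-type cells in dexamethasone. The groups did not overlap, but the C1C2 ethanol replicates differed widely (log2 difference 2.36, SE 0.46, adjusted p = 0.0116). Its call was lost without wild-type ethanol replicate 1 (adjusted p = 0.053), wild-type ethanol replicate 2 (adjusted p = 0.0571) or C1C2 ethanol replicate 2 (adjusted p = 0.0542). Prl2c2 (log2 difference 2.16, SE 0.55, adjusted p = 0.0459) lost its call with any 1 library left out other than C1C2 ethanol replicate 1, with an adjusted p of 0.0963 to 0.187. The proliferin genes are near-identical copies whose reads the counting could split, so each value is uncertain. Fer1l6, a ferlin (log2 difference 1.39, adjusted p = 0.0378), lost its call with any 1 library left out (adjusted p = 0.0513 to 0.162). S100a7a, a psoriasin relative (log2 difference 1.31, adjusted p = 0.0321), lost it with any but C1C2 ethanol replicate 1 left out (adjusted p = 0.0642 to 0.186).

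Clustered protocadherins encode cell-surface identity molecules, expressed by choice among alternative promoters in arrays on chromosome 18. Of 58 genes listed, 34 had enough counts to be tested: 9 were lower in C1C2 cells, 0 were higher and 25 did not pass, against 2.19% called lower among all tested genes. The median log2 difference over the 34 was -0.78, with 32 of 34 negative, against -0.0058 over all tested genes. Pcdhb14 (37447656 to 37456350, plus strand) had 3.52 and 3.26 CPM in C1C2 cells against 8.97 and 8.11 CPM in wild-type cells in ethanol, and 3.70 and 3.23 CPM in C1C2 cells against 7.54 and 7.98 CPM in wild-type cells in dexamethasone. Its log2 difference was -1.25 (SE 0.10, adjusted p = 1.06e-08), and wild type was also above the 2.87 to 4.04 CPM of empty-vector cells without IPTG. Pcdhb22 (37517871 to 37524479, plus strand) had 0.970, 0.414, 0.609 and 0.587 CPM in C1C2 cells against 3.25, 3.39, 3.20 and 2.30 CPM in wild-type cells (log2 difference -2.24, SE 0.27, adjusted p = 2.02e-05). Empty-vector cells held 0.0300 to 0.354 CPM of Pcdhb22 with IPTG and 1.63 to 1.98 CPM without it, so C1C2 was above the level with IPTG and wild type above both levels.

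Pcdhgb6 had 0.179 to 0.276 CPM in C1C2 cells and 0.709 to 0.806 CPM in wild-type cells (log2 difference -1.89, SE 0.28, adjusted p = 0.000157). Pcdhga3 had 6 counts over the C1C2 libraries and 45 over the wild-type libraries (log2 difference -3.07, SE 0.52, adjusted p = 0.000821). These 4 genes kept their call with any 1 library left out. Pcdhgb8 (log2 difference -1.25) lost it without wild-type ethanol replicate 2 (adjusted p = 0.0508), and Pcdhb21 (-1.22) without C1C2 ethanol replicate 2 (adjusted p = 0.0578) or C1C2 dexamethasone replicate 1 or 2 (adjusted p = 0.0504 and 0.0552). Pcdhgb7 (-0.65) kept it only without C1C2 ethanol replicate 1 or a wild-type dexamethasone replicate (otherwise adjusted p = 0.0604 to 0.122). Pcdhga11 (-1.22) kept it only without C1C2 ethanol replicate 1 or wild-type dexamethasone replicate 2 (otherwise adjusted p = 0.0624 to 0.189), and Pcdhga1 (-1.27) lost it with any library left out (adjusted p = 0.0566 to 0.144). Pcdhb21 and Pcdhb22 overlap on the same strand, and each gamma gene shares exons with 25 annotated same-strand genes, so reads of shared exons cannot be assigned to 1 gene.

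Of 15 genes of cohesin and loop extrusion, Stag1 passed as higher in C1C2 cells and the other 14 did not pass. Among all tested genes 4.86% were called, and 2.67% were called higher, so 1 call in 15 is near that share. Stag1 (chromosome 9, 100597798 to 100959375, plus strand) encodes one of the alternative STAG subunits of cohesin. It had 203 and 208 CPM in C1C2 cells against 162 and 162 CPM in wild-type cells in ethanol, and 162 and 169 CPM in C1C2 cells against 140 and 140 CPM in wild-type cells in dexamethasone. Within each treatment the lines did not overlap, and the difference was 0.29 on the log2 scale (SE 0.04, adjusted p = 1.14e-05). Over both treatments, empty-vector cells held 179 to 222 CPM with IPTG and 117 to 153 CPM without it. C1C2 in ethanol lay within the range with IPTG, and wild type in dexamethasone within the range without it. C1C2 in dexamethasone and wild type in ethanol lay between these ranges. Stag1 was lower in dexamethasone than in ethanol in both lines. Placement against ranges taken over both treatments therefore does not separate construct from treatment. CTCF, the insulator protein that halts loop extrusion, showed 93.9 to 110 CPM of Ctcf in C1C2 cells and 88.8 to 101 CPM in wild-type cells (log2 difference 0.07, adjusted p = 0.307). Pds5a, a cohesin regulator, had a log2 difference of 0.08 (adjusted p = 0.214), and Esco2, a cohesin acetyltransferase, of -0.11 (adjusted p = 0.103).

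Of 27 tested glucocorticoid-induced genes, 7 were lower in C1C2 cells (Rgs2, Tgm2, Pdk4, Ddit4, Bcl6, Fkbp5 and Cdkn1a), 1 was higher (Ampd3) and 19 did not pass, against 2.19% called lower and 2.67% called higher among all tested genes. Their median log2 difference was -0.19, with 20 of 27 negative. The glucocorticoid receptor gene Nr3c1 had 182, 186, 107 and 114 CPM in C1C2 cells against 175, 183, 103 and 109 CPM in wild-type cells (log2 difference 0.05, adjusted p = 0.446). Fkbp5, a chaperone partner of the receptor that limits its activity, had 76.0 and 81.2 CPM in C1C2 cells against 75.2 and 81.4 CPM in wild-type cells in ethanol. In dexamethasone it had 397 and 430 CPM in C1C2 cells against 529 and 570 CPM in wild-type cells. The lines overlapped without hormone and separated with it, by -0.41 on the log2 scale in dexamethasone (adjusted p = 0.00661) and 0.01 in ethanol (adjusted p = 0.989). The difference of the responses was -0.42 (unadjusted p = 0.00109, adjusted p = 1), so it did not pass. Tsc22d3, whose product GILZ mediates part of the hormone's anti-inflammatory action, had 161 and 170 CPM in C1C2 cells against 192 and 217 CPM in wild-type cells in dexamethasone (log2 difference -0.31, adjusted p = 0.048), and 11.9 and 12.3 CPM in C1C2 cells against 13.3 and 12.5 CPM in wild-type cells in ethanol. Per1, a clock gene with a strong hormone response, had 287 and 278 CPM in C1C2 cells and 286 and 279 CPM in wild-type cells in dexamethasone (log2 difference 0.00, adjusted p = 0.988).

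Ampd3, an AMP deaminase, had 98.5 and 101 CPM in C1C2 cells against 77.1 and 78.4 CPM in wild-type cells in ethanol, and 391 and 409 CPM in C1C2 cells against 360 and 382 CPM in wild-type cells in dexamethasone (pooled log2 difference 0.23, SE 0.04, adjusted p = 0.000319). Pdk4, a kinase that switches off pyruvate dehydrogenase, had 24.7 and 25.9 CPM in C1C2 cells against 30.6 and 36.2 CPM in wild-type cells in dexamethasone. Ddit4, an inhibitor of mTORC1, had 240 and 245 CPM in C1C2 cells against 339 and 362 CPM in wild-type cells in dexamethasone. The pooled calls of the 7 lower genes were not stable when 1 library was left out, a step that also leaves 1 library in its group. Fkbp5 (pooled log2 difference -0.20, adjusted p = 0.0358) kept its call only without wild-type dexamethasone replicate 1, as did Pdk4 (-0.30, adjusted p = 0.0294). With another library left out their adjusted p rose up to 0.182 and 0.191. Ddit4 (-0.38, adjusted p = 0.0298) kept it only without wild-type ethanol replicate 1 (otherwise up to 0.136), and Tgm2 (-0.28, adjusted p = 0.0302) only without wild-type ethanol replicate 1 or wild-type dexamethasone replicate 1 (otherwise up to 0.155). Rgs2 (-0.57) kept it only without replicate 1 of wild type or of C1C2 in dexamethasone (otherwise adjusted p up to 0.115), and Cdkn1a (-0.19) only without wild-type ethanol replicate 2 or wild-type dexamethasone replicate 1 (otherwise up to 0.216). Bcl6 (-0.39) lost it without C1C2 ethanol replicate 2 (adjusted p = 0.0556) or C1C2 dexamethasone replicate 2 (adjusted p = 0.0538).

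Across all genes, 0 of 16934 passed in the test of the difference between the dexamethasone response of C1C2 and that of wild-type cells (0%), with edgeR and with DESeq2. At an unadjusted p under 0.05 there were 541 genes (3.19%). The 823 pooled calls thus came with no gene for which the hormone was shown to change the difference, although a difference that missed the threshold is not shown to be absent. In 822 of the 823, the difference had the same sign in ethanol and in dexamethasone. These genes were called on the mean of both differences, which favours a shared sign, so this count is no separate evidence.

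**Figure D4:**
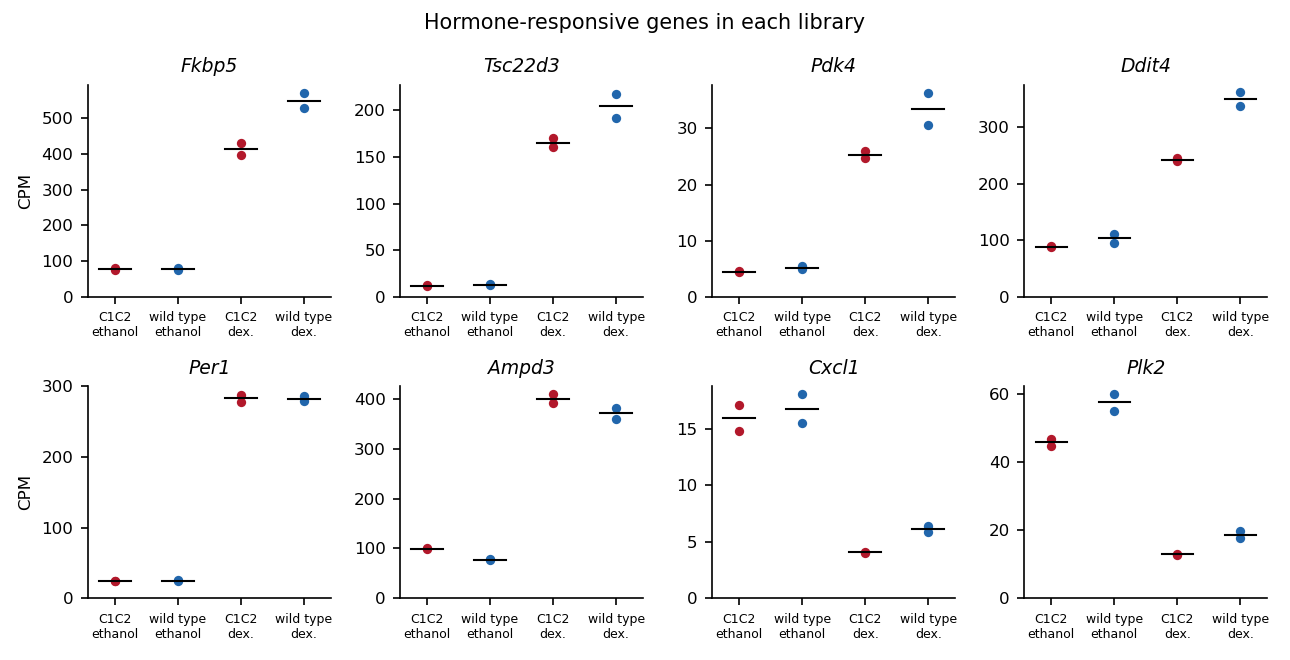
CPM of 8 hormone-responsive genes in each C1C2 (red) and wild-type (blue) library, by treatment, with the mean of 2 libraries as a line. Fkbp5 lies at 397 and 430 CPM in C1C2 and 529 and 570 CPM in wild type with dexamethasone, while Per1 overlaps in both treatments.

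Of 9 tested glucocorticoid-repressed inflammatory genes, Cxcl1, Lif and Ccl7 were lower and 6 did not pass (median log2 difference -0.24). Among all tested genes 2.67% were called higher and 2.19% lower. Of 21 chemokine, interleukin and cytokine ligands, 4 were higher (Cxcl10, Il34, Ccl5 and Il33) and 6 were lower (Tgfb2, Cxcl12 and Cx3cl1, besides Cxcl1, Lif and Ccl7, which both lists hold). Il33, an alarmin of the interleukin-1 family, had 19.7 and 23.2 CPM in C1C2 cells against 10.4 and 12.4 CPM in wild-type cells in ethanol, and 13.5 and 16.2 CPM in C1C2 cells against 7.75 and 9.04 CPM in wild-type cells in dexamethasone (log2 difference 0.87, SE 0.12, adjusted p = 0.000488). It was the ligand that kept its call with any 1 library left out; the other 9 lost theirs in at least 1 such fit. Cxcl10, an interferon-induced chemokine (log2 difference 0.50, SE 0.11, adjusted p = 0.0102), lost it without C1C2 ethanol replicate 2 (adjusted p = 0.064) or C1C2 dexamethasone replicate 1 (adjusted p = 0.0503). Cxcl1, a neutrophil chemokine, had 14.8 and 17.1 CPM in C1C2 cells against 15.5 and 18.1 CPM in wild-type cells in ethanol, and 4.13 and 4.04 CPM in C1C2 cells against 5.83 and 6.43 CPM in wild-type cells in dexamethasone. Its pooled log2 difference of -0.33 (adjusted p = 0.019) kept its call only without a library of replicate 1 in the wild-type groups or without C1C2 ethanol replicate 2 (otherwise adjusted p up to 0.12). Cx3cl1, a membrane-bound chemokine (-0.31), lost it in the fits without C1C2 ethanol replicate 2 or wild-type ethanol replicate 2 (adjusted p = 0.0935 and 0.082), without either C1C2 dexamethasone replicate (0.0598 and 0.0629) and without wild-type dexamethasone replicate 2 (0.0613).

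Of 24 interferon-stimulated genes, Rsad2, Oasl2 and Ifit1 were higher in C1C2 cells, 0 were lower and 21 did not pass, against 2.67% called higher among all tested genes, with a median of 0.10 and 18 of 24 positive. Rsad2 (chromosome 12, 26442746 to 26456452, minus strand), which encodes the antiviral enzyme viperin, had 11.4 and 9.69 CPM in C1C2 cells against 4.44 and 6.45 CPM in wild-type cells in ethanol, and 8.13 and 7.14 CPM in C1C2 cells against 3.22 and 4.14 CPM in wild-type cells in dexamethasone. Its log2 difference was 1.00 (SE 0.12, adjusted p = 2.02e-05), with 6.04 to 9.48 CPM in empty-vector cells with IPTG and 2.45 to 5.67 CPM in those without it. Oasl2, an oligoadenylate synthetase-like protein (0.40, adjusted p = 0.00709), and Ifit1, an RNA-binding antiviral protein (0.32, adjusted p = 0.00747), lost their calls without wild-type ethanol replicate 1 (adjusted p = 0.0693 and 0.0678).

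Of 21 immediate early genes, transcripts of the first response to growth signals, 5 were lower in C1C2 cells (Fosl2, Jund, Ier2, Egr2 and Fos), 0 were higher and 16 did not pass, against 2.19% called lower among all tested genes, with a median of -0.08. FOS, FOSL2 and JUND are subunits of the AP-1 transcription factor. Fosl2 had 110 and 113 CPM in C1C2 cells against 129 and 145 CPM in wild-type cells in ethanol, and 65.1 and 68.8 CPM in C1C2 cells against 85.5 and 87.6 CPM in wild-type cells in dexamethasone (log2 difference -0.33, SE 0.04, adjusted p = 2.24e-05). It was the member that kept its call with any 1 library left out. Fos lay at 0.0255 to 0.349 CPM in C1C2 cells and 0.298 to 0.692 CPM in wild-type cells (log2 difference -1.20, SE 0.31, adjusted p = 0.0235) and lost its call without C1C2 ethanol replicate 1 (adjusted p = 0.128), either C1C2 dexamethasone replicate (0.0733 and 0.0554), wild-type ethanol replicate 2 (0.116) or wild-type dexamethasone replicate 1 (0.0658). Ier2 (-0.32) lost it without C1C2 ethanol replicate 1 (0.0611), wild-type ethanol replicate 2 (0.0947) or C1C2 dexamethasone replicate 1 (0.0546). Egr2 (-0.96) kept it only without wild-type ethanol replicate 1 or a wild-type dexamethasone replicate (otherwise up to 0.148), and Jund (-0.19) only without replicate 1 of C1C2 or of wild type in dexamethasone (otherwise up to 0.123).

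The AP-1 consensus TGACTCA, whose reverse complement is TGAGTCA, was sought on both strands in promoter windows of 300 bases, from 250 before to 50 after the first listed start of a gene (RefSeq, GRCm38.p6). Of 16934 tested genes, 10231 matched a promoter by symbol. It was present in 27 of 343 promoters of genes called higher in C1C2 cells (7.87%), 6 of 258 of genes called lower (2.33%) and 391 of all 10231 (3.82%). The TATA box letters TATAAA were present in 8.75% of higher, 11.2% of lower and 7.14% of all promoters, and the full palindromic glucocorticoid response element in 0% of all 3 sets. Also sought were a CTCF core stretch, CCACCAG (5.54% of higher, 8.53% of lower and 6.25% of all promoters), and the GC box CCGCCC. The GC box was present in 65% of higher, 60.9% of lower and 63.1% of all promoters. A match is a description of letters, not of a bound site. Promoters of 3 stable higher genes and of 1 lower gene with a match are shown, 5′ to 3′ in the direction of the gene, with the AP-1 letters in capitals.
Rsad2: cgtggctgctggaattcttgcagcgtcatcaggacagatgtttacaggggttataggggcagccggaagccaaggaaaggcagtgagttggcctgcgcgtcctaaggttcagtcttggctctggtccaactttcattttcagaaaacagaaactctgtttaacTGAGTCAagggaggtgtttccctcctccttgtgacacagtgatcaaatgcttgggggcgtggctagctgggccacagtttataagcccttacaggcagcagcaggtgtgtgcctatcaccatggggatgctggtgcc
Serpinb8: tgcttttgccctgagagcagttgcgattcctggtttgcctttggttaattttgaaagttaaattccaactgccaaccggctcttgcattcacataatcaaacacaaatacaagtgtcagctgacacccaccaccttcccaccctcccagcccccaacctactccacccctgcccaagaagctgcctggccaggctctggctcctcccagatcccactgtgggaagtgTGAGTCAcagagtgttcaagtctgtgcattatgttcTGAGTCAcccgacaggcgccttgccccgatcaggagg
Srxn1: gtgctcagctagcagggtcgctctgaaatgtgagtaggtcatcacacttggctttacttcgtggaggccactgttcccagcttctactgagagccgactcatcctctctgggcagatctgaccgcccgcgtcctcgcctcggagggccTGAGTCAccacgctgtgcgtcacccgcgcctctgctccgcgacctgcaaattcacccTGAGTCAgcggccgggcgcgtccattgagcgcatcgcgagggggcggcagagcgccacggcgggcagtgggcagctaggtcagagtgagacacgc
Galnt15: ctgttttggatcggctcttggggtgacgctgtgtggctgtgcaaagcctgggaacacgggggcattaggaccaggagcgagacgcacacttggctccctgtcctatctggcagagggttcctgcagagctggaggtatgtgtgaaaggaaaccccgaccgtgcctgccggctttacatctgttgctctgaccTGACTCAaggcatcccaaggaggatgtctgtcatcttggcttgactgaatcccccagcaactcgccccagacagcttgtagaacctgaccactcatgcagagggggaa
The windows are chr12:26456403-26456702 on the minus strand for Rsad2, chr1:107589756-107590055 on the plus strand for Serpinb8, chr2:152105274-152105573 on the plus strand for Srxn1 and chr14:32028853-32029152 on the plus strand for Galnt15.

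In Rsad2 the AP-1 letters begin 87 bases before the start, and in Galnt15 58 bases before it. Srxn1 has matches that begin 102 and 45 bases before the start, and Serpinb8 one that begins 23 bases before it and another after it. Serpinb8, an intracellular protease inhibitor, had 25.9, 24.6, 24.2 and 27.2 CPM in C1C2 cells (ethanol, then dexamethasone) against 18.2, 17.1, 19.1 and 19.9 CPM in wild-type cells, a log2 difference of 0.46 (SE 0.06, adjusted p = 2e-05). Srxn1, the antioxidant enzyme sulfiredoxin, had 214, 207, 217 and 220 CPM in C1C2 cells against 183, 177, 181 and 185 CPM in wild-type cells (0.24, SE 0.04, adjusted p = 0.00044). The lines did not overlap in either treatment for Serpinb8 or Srxn1. Galnt15, which starts O-linked glycans, had 7.17, 6.36, 4.92 and 3.82 CPM in C1C2 cells against 11.1, 11.6, 7.33 and 8.79 CPM in wild-type cells (-0.82, SE 0.16, adjusted p = 0.00628). It lost its call without both doubted libraries (adjusted p = 0.0619). Serpinb8 and Srxn1 were chosen after their values were seen.

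In the list of 26 tested ATF4 and unfolded protein response genes, Trib3, Slc7a11 and Slc3a2 were higher in C1C2 cells, 0 were lower and 23 did not pass, against 2.67% called higher among all tested genes (median 0.10, 21 of 26 positive). Slc7a11 and Slc3a2 encode the subunits of the cystine-glutamate exchanger. Slc7a11 had 39.3, 36.0, 31.4 and 29.4 CPM in C1C2 cells against 23.3, 17.8, 19.2 and 15.9 CPM in wild-type cells (log2 difference 0.83, SE 0.13, adjusted p = 0.00257), with 8.03 to 14.9 CPM in empty-vector cells without IPTG. Slc3a2 had 128, 132, 177 and 180 CPM in C1C2 cells against 119, 118, 155 and 151 CPM in wild-type cells (0.18, SE 0.04, adjusted p = 0.00609). Trib3, a pseudokinase that dampens the ATF4 pathway, had 48.4 to 58.1 CPM in C1C2 cells and 28.3 to 35.5 CPM in wild-type cells (0.67, SE 0.11, adjusted p = 0.00211). These 3 genes kept their call with any 1 library left out.

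Of 20 p53 targets, Btg2, Plk2 and Cdkn1a were lower and 17 did not pass, against 2.19% called lower among all tested genes (median -0.06). Btg2, an antiproliferative gene, had 4.03, 3.40, 3.59 and 3.60 CPM in C1C2 cells against 5.93, 7.32, 5.34 and 6.50 CPM in wild-type cells (-0.78, SE 0.10, adjusted p = 2.8e-05). Plk2, a polo-like kinase, had 46.9, 44.8, 12.9 and 13.1 CPM in C1C2 cells against 55.2, 60.1, 17.8 and 19.7 CPM in wild-type cells (-0.43, SE 0.05, adjusted p = 9.81e-06). None of the 28 DNA replication and cell cycle genes passed, with a median of 0.03. Of 17 matrix and mesenchymal genes, Col5a1, a fibrillar collagen chain, was lower (-0.25, SE 0.05, adjusted p = 0.00233), with 101 to 134 CPM in C1C2 cells and 127 to 146 CPM in wild-type cells, and 16 did not pass (median -0.22). Among the 5 tested epithelial markers, Esrp1, a splicing regulator, was higher (1.20, adjusted p = 0.00917) at 0.408 to 0.587 CPM in C1C2 cells and 0.198 to 0.230 CPM in wild-type cells, and Krt14 was lower (-0.24, adjusted p = 0.0343). Esrp1 lost its call without C1C2 ethanol replicate 2 (adjusted p = 0.0685) or C1C2 dexamethasone replicate 2 (adjusted p = 0.0666), and Krt14 with any library other than C1C2 dexamethasone replicate 1 left out (adjusted p = 0.0516 to 0.17). The part of the lower summed epithelial markers in other differences was not tested.

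No member passed in 8 of the 20 lists: 28 cell cycle genes, 27 Hox genes (median -0.04), 26 sterol and fatty acid synthesis genes (-0.09, 23 of 26 negative), 15 mitochondrially encoded genes (-0.22), 30 ribosomal protein genes (-0.01), 27 replication-dependent histones (-0.01), 3 immune markers and 2 endothelial markers. Among all tested genes 4.86% were called. All 15 mitochondrial genes of the list were negative. The mitochondrial chromosome held 25 tested genes, of which 1 was called lower: mt-Tq, which is not in the list. Wild-type dexamethasone replicate 2 held 1.66% of its counts in mitochondrial genes, against 1.08% in replicate 1 and 1.02% and 1.12% in the C1C2 dexamethasone libraries. The mitochondrial median was -0.05 without wild-type dexamethasone replicate 2, against -0.33 without wild-type dexamethasone replicate 1, and -0.14 without wild-type ethanol replicate 1.

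**Figure D5:**
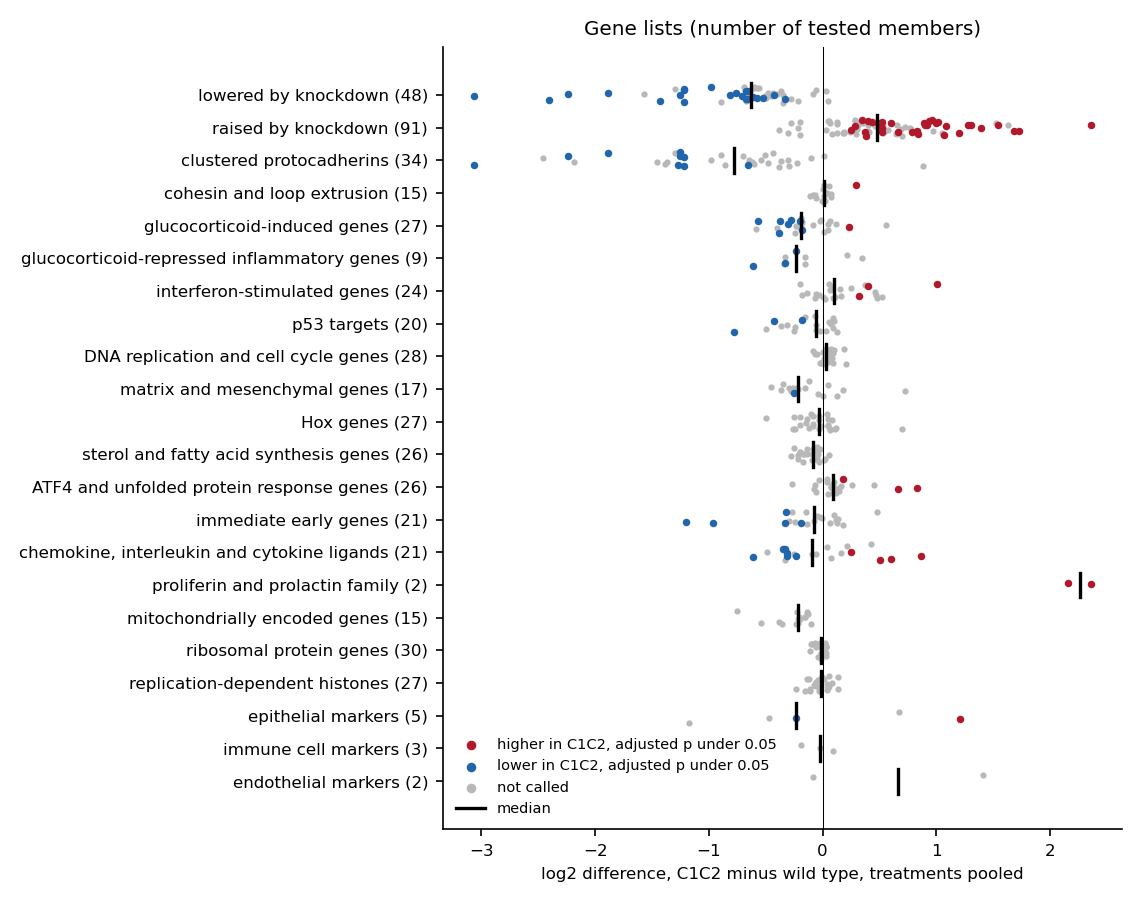
Log2 difference of C1C2 minus wild-type cells, treatments pooled (horizontal axis), for the tested members of each list; red and blue points passed at an adjusted p under 0.05, grey ones did not, and black bars are medians. The genes lowered by the knockdown (median -0.63) and clustered protocadherins (-0.78) lie left of 0, and those raised by it (0.48) right of 0.

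The called genes shared features that the contrast did not use. By quartile of gene span, 1.49%, 4.42%, 5.29% and 8.24% of tested genes were called, from genes up to 3.43 kb to genes over 39.3 kb. By quartile of mean CPM it was 1.72%, 4.04%, 6.07% and 7.61%, and a test has more power at higher counts. Among the genes in the lowest quartile of CPM, 0.499% of the shortest and 7.52% of the longest were called. In the second quartile of CPM the shares were 2.03% and 8.86%, in the third 6.48% and 8.33%, with 5.15% and 4.84% for the spans between, and in the highest 3.41% and 8.13%. Of 12163 protein-coding genes 6.3% were called, of 637 lincRNAs 1.88% and of 503 antisense genes 0.596%. Level was not held fixed between these gene types, so power may differ among them. The share called ranged over the autosomes between 3.08% on chromosome 17 and 6.58% on chromosome 15, and no autosome had a median log2 difference beyond 0.0322 in size.

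Of the 371 genes called lower, 45 (12.1%) had a neighbouring tested gene that was also called lower, against 4.32% of all tested genes. Without clustered protocadherins it was 11% against 4.25%. For genes called higher the shares were 6.42% and 5.28%. Runs of lower genes included Ly6a and Ly6c1 on chromosome 15, Efnb2 and unnamed gene models within its span on chromosome 8, H2-T23 and H2-T22 on chromosome 17, and Endou and Rapgef3 on chromosome 15. Ly6a, the stem cell antigen SCA-1, had 25.8, 29.1, 47.4 and 51.1 CPM in C1C2 cells against 40.5, 42.0, 72.0 and 77.7 CPM in wild-type cells (-0.59, SE 0.08, adjusted p = 0.000411). Ly6c1, its relative, had 15.1, 16.4, 26.8 and 29.1 CPM in C1C2 cells against 20.6, 22.2, 35.5 and 43.7 CPM in wild-type cells (-0.47, SE 0.08, adjusted p = 0.00112). Efnb2, a ligand of Eph receptors, had 63.9, 62.6, 51.0 and 51.4 CPM in C1C2 cells against 68.8, 73.8, 62.6 and 65.3 CPM in wild-type cells (-0.25, SE 0.04, adjusted p = 0.000319). H2-T22 had a log2 difference of -0.30 (SE 0.06, adjusted p = 0.00366). Genes of the Ly6 and H2-T families are similar in sequence, so reads may be split between members. These neighbours were chosen after their values were seen.

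The single mutants were compared with the same wild-type libraries, so their values stand beside those of C1C2 and are not an independent test. C1C2 had 823 calls against wild type (4.86%), C1 had 1635 (9.66%) and C2 had 2177 (12.9%). Lower calls were 2.19% of tested genes for C1C2, 4.41% for C1 and 5.98% for C2, and higher calls 2.67%, 5.24% and 6.87%. Of the 48 genes lowered by the knockdown, 22 were lower in C1C2, 33 in C1 and 39 in C2 cells, with median log2 differences of -0.63, -0.81 and -0.97. Of the 91 raised genes, 34 were higher in C1C2, 32 in C1 and 29 in C2 cells, and 2 were lower in C1. The difference between the mutants themselves was not tested.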

How the data were processed

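RNA was measured by stranded total RNA-seq after ribosomal RNA depletion, per the labels' protocols. The authors deposited a table of whole-number read counts per gene for 24 libraries. Per the submitters' processing notes, bcl2fastq 2.20, cutadapt 1.18, STAR 2.7.0f and featureCounts (Subread 2.0.3) were used with build mm10. The strand setting and the annotation of the counting are not given in the sources used here, and 55298 of 55341 gene names have the coordinates of GENCODE vM21. Each library was placed by its title.

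Counts of all 24 libraries were fitted in edgeR 4.0.16 (R 4.3.3) with 1 mean for each of 12 groups, TMM scaling and the robust quasi-likelihood test, with 12 residual degrees of freedom. Genes with low counts were removed (38407), leaving 16934, and p-values were Benjamini-Hochberg adjusted over them. The pooled difference is the mean of the C1C2 minus wild-type differences within ethanol and within dexamethasone. DESeq2 1.42.0, other scaling and filters, leaving out libraries and a replicate block were tried as alternatives. The fit was tested on simulated data. RefSeq promoters (GRCm38.p6) were matched by symbol.

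The comparison and the 20 gene lists were chosen with earlier results of these data known. Named genes are the 12 higher and 12 lower of largest difference among called genes with a mean of at least 1 CPM and separated lines in each treatment, Nipbl and Mau2, and up to 4 members of each list by smallest adjusted p. Other genes, among them Fkbp5, Per1, Tsc22d3, Pdk4, Ddit4, Tgm2, Nr3c1, Fos and several protocadherins, were chosen after their values were seen.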

Additional observations from a re-analysis of the deposited data

How the results depend on the processing

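The pooled count of 823 was 857 with DESeq2, 1075 with no filter, 957 with the 8 libraries alone and 800 to 886 with other scaling, a stricter filter or trend removal. In ethanol it was 289 with no filter, and in dexamethasone 368 with DESeq2 and 517 with no filter. The difference of responses had 10 calls with no filter, 1 with only the 8 libraries and 1 with their group means alone (added after seeing the data).

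With 1 library left out, the counts were 404 to 782 pooled, 34 to 149 in ethanol and 43 to 207 in dexamethasone. The genes lowered by the knockdown then had 14 to 27 lower calls and a median of -0.694 to -0.525, and the raised genes 14 to 27 higher calls. Without both doubted libraries (added after seeing the data), the counts were 406, 44 and 122, the lowered median was -0.506, and 15 lowered and 10 raised genes were called. With the library of disagreeing labels moved to dexamethasone, the counts were 171 (62% higher), 17 and 141, with 9 lowered and 13 raised genes called. Ampd3, Col5a1, Slc3a2, Fosl2, Chst1, Ccn4, Ly6c1 and Efnb2 lost their calls in this fit and in no other alternative. Other named genes, among them Galnt15, lost theirs in this fit and in others. The differences of Cxcl1 (0.14) and Plk2 (0.020) changed sign. The moved library held 24.4 CPM of Per1 and 12.3 CPM of Tsc22d3, which lay with the ethanol libraries. The cause of these changes was not tested.

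The labels do not say what a replicate number marks. Deviations of same-numbered libraries correlated at 0.23 to 0.39 over all pairs of the 4 groups compared (C1C2 with wild type 0.33 in ethanol and 0.32 in dexamethasone), and above 0.1 in 20 of 30 pairs of groups within a treatment over the series (range -0.17 to 0.57), so whether the numbers pair the samples is unsure. A replicate block gave 1332 calls pooled, 299 in ethanol, 550 in dexamethasone and 1 for the responses. A block within treatment gave 1313, 278, 540 and 2, and with the length and GC trend removed 1383, 334 and 527. Of 89 called genes named here or by the rule, 31 kept their call and direction in all 21 alternatives, and 6 kept them in the 17 or more that gave a value. Genes under about 1 CPM rest on few counts, and their differences are the least precise.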
